A study of Mus musculus with 6 samples.

Results

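Fibronectin and the matricellular glycoproteins are secreted proteins of the extracellular matrix. Fibronectin is assembled by cells into fibrils that other matrix proteins and integrins bind. The matricellular proteins (tenascins, thrombospondins, periostin, SPARC, osteopontin and relatives) contribute less to the matrix as a scaffold and modulate how cells attach to it, move and receive growth factors. In skeletal muscle they come largely from stromal fibroblast-like cells and are known for their place in repair and fibrosis. The set described here holds 10 genes of the mouse chosen by symbol, Fn1, Tnc, Postn, Sparc, Spp1, Thbs1, Thbs2, Thbs3, Tgfbi and Ecm1, out of 18124 genes in the deposited table. All 10 were listed, and all 10 passed the filter on low counts that left 14644 genes for testing.

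RNA was measured by bulk sequencing in mesenchymal stem cells of mouse quadriceps muscle, 3 libraries per medium. The genotype was Col1-GFP, a reporter in which a collagen 1 promoter drives green fluorescent protein, and the cells were sorted from 6 naive male mice as positive for that protein and for Sca-1, the product of Ly6a. They were expanded, used at passage 4 and held for 72 hours in medium taken from bone marrow-derived macrophages of wild type mice. The control group received medium from untreated macrophages. The senescent group received medium from macrophages exposed to 300 µM hydrogen peroxide for 3 hours, again 3 days later, and cultured for 14 more days; each medium was a pool of collections of 48 hours. The ages of the mice, whether their cells were pooled, and how long the control macrophages were cultured are not given in the labels, so culture time and senescence cannot be told apart. The labels name no separate animals or isolates for the libraries of a group, and p-values therefore rest on library-to-library spread alone, which may be technical.

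Library totals ran from 17228162 to 21659434 estimated counts. Markers of the sorted cells were present: Col1a1 stood at 5361 ± 69.8 CPM in control and 7516 ± 229 CPM in senescent medium (CPM, the count relative to the scaled library size; mean ± SD, n = 3), Ly6a at 1206 ± 44.7 and 1235 ± 46.8 CPM, and Pdgfra at 265 ± 9.87 and 217 ± 2.06 CPM. Of 11 muscle stromal markers looked up, 10 were tested and moved in both directions. Col1a1, Col1a2, Thy1, Cd34 and Dcn rose (5 genes), and Ly6a did not pass the test. Pdgfra, Pdgfrb, Eng and Gsn fell (4 genes), Pdgfra by a log2 fold change of -0.29. Dcn was low, at 21.0 CPM in control and 29.0 CPM in senescent medium. Lum, too low to test, was at or near 0, with 0 to 0.24 CPM. Because several of the 10 genes are also made by macrophages, macrophage markers were looked up: 10 of 15, including Adgre1, Ptprc and Itgam, were not listed in a table whose genes all have at least 10 counts summed over the libraries, and the other 5 summed to 19.0 to 22.0 CPM in control and 18.1 to 24.2 CPM in senescent medium. Of those, Lyz2 rose while Csf1r and Cd14 fell. Markers of other cell types moved with the medium too. Of 7 pericyte and smooth muscle genes, 3 rose (Des by 1.65 and Cspg4 by 0.97 on the log2 scale, and Acta2 by 0.09) and 2 fell (Myh11, -0.998, and Mcam, -0.98), and the list summed to 1316 to 1383 CPM in control and 1389 to 1465 CPM in senescent medium, most of it Acta2. Of 4 tenocyte genes, 3 fell (log2 fold changes of -1.11 for Mkx, -0.31 for Tnmd and -0.23 for Fmod), and the list summed to 221 to 230 and 184 to 199 CPM. Of 8 endothelial genes 5 were not listed, Cdh5 among them, and the others summed to 23.5 to 26.0 and 25.7 to 32.5 CPM, with a rise of Kdr. Of 7 muscle genes only Acta1 was listed, which rose to 13.1 to 14.3 CPM, and of 4 Schwann cell genes Sox10 was not listed and none passed the test. The part of these markers' changes in the results below was not tested. In bulk RNA, fewer cells that express a gene and less RNA per cell cannot be told apart.

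Promoter sequence was found in RefSeq (build GRCm38.p6) for 8 of the 10 genes, all but Fn1 and Thbs1. The 100 bases before the transcription start are shown for 5 genes that changed and whose start is shared by most annotated coding transcripts: Ecm1 and Thbs2, which rose, and Postn, Spp1 and Thbs3, which fell. Sequences run 5′ to 3′ on the strand of the gene. Capitals mark 3 motifs on either strand: TATAAA is the core of a TATA box, TGANTCA covers the AP-1 site, and CAGACA (or, on the other strand, its complement TGTCTG) contains the core of the SMAD binding site.
Ecm1, chr3:95739570-95739669, minus strand: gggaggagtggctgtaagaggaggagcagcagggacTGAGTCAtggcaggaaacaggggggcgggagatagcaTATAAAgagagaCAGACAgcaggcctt
Thbs2, chr17:14694263-14694362, minus strand: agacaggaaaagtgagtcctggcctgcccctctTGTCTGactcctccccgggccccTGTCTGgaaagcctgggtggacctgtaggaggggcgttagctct
Postn, chr3:54361007-54361106, plus strand: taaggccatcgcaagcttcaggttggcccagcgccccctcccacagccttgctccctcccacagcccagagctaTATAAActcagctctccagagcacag
Spp1, chr5:104435011-104435110, plus strand: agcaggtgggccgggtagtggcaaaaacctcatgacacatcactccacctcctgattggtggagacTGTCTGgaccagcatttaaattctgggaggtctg
Thbs3, chr3:89215080-89215179, plus strand: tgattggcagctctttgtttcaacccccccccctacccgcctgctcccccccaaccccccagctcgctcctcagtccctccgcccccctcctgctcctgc
TATAAA lay 27 to 22 bases before the start of Ecm1, which rose, and 26 to 21 bases before that of Postn, which fell. Over the full 250 bases before the start, searched on both strands, TATAAA was present in 5 of the 8 genes (Ecm1, Postn, Spp1, Thbs2 and Tnc) and in 12.4% of all 32851 promoter windows of that length. In Spp1 TATAAA lay 211 to 206 bases before the start, in Tnc 126 to 121, and in Thbs2 126 to 121 on the opposite strand. The count takes in matches at any position, not only those where a TATA box would lie. CAGACA was present in Ecm1, Sparc, Spp1 and Thbs2, and in 17.1% of all windows. TGANTCA was present in Ecm1 alone, and in 6.75% of all windows. CATTCC, the TEAD core (12.6% of all windows), and the palindrome GTCTAGAC (0.167%) were in none of the 8 windows. These matches describe letters only. Genes that rose and genes that fell both held TATAAA and CAGACA.

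In senescent macrophage medium 5 of the 10 genes rose (Fn1, Sparc, Ecm1, Tnc and Thbs2), 4 fell (Thbs3, Spp1, Thbs1 and Postn), and Tgfbi did not pass the test. The changes were modest, from 1.51-fold higher for Fn1 to 1.71-fold lower for Thbs3. Over all 14644 genes tested, 24.6% rose and 24.9% fell (49.5% in either direction) by the same test (edgeR quasi-likelihood test, Benjamini-Hochberg adjusted p below 0.05). Scaled by library totals alone, the shares were 17.7% and 32.9%, while the 10 genes still gave 5 higher and 4 lower. The CPM values of both media did not overlap for 9 of the 10 genes, against 55.8% of all tested genes. By level per exon length most of the 10 genes lie well above most tested genes, and these shares were not matched for level. The median absolute log2 fold change was 0.33 over the 10 genes and 0.23 over all tested genes. The signed medians were 0.07 and -0.00096; the latter is set near 0 by the scaling and was -0.082 with library totals alone.

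**Figure D1:**
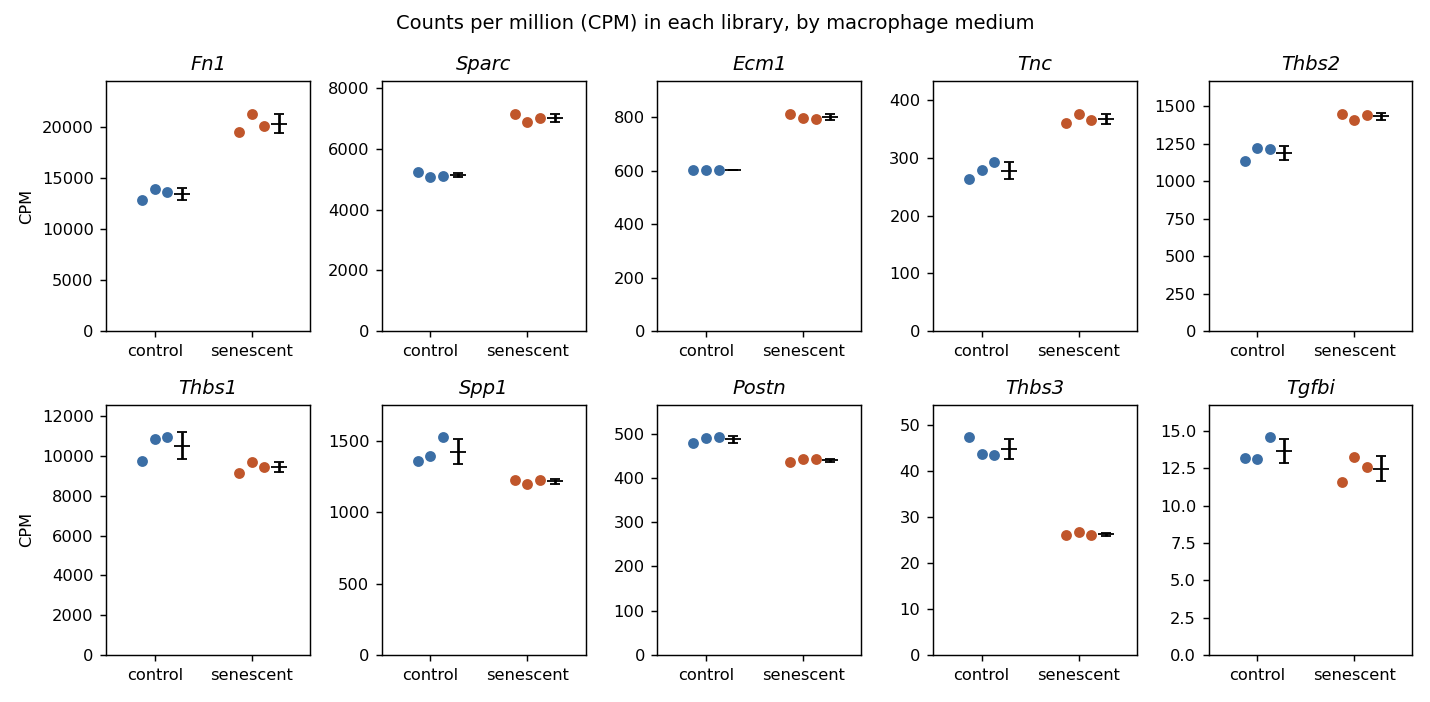
CPM of each of the 10 genes in the 3 control (blue) and 3 senescent (orange) medium libraries, each axis starting at 0; the black mark and bar are the mean and SD. The libraries of both media are separate for every gene but Tgfbi, and the upper row holds the 5 genes that rose.

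Fn1 (ENSMUSG00000026193) encodes fibronectin, the fibril-forming glycoprotein on which cells attach through its RGD site. Its 3 control libraries held 12790, 13924 and 13657 CPM and its senescent-medium libraries 19467, 21270 and 20099 CPM. Every senescent-medium library was above every control library, and the gap between them exceeded the range within either group. The log2 fold change was 0.59 ± 0.038 (± is the SE after a fold change; adjusted p = 8.81e-14, edgeR). Fn1 alone took 1.32% to 1.42% of a control library's counts and 1.87% to 2.06% of a senescent-medium library's. Counts are per gene, so the splice forms of fibronectin made by plasma and by cells were not separated.

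Sparc (ENSMUSG00000018593) encodes osteonectin, which binds collagen and calcium and takes part in the handling of newly made collagen. It stood at 5228, 5079 and 5112 CPM in control medium and at 7162, 6881 and 7021 CPM in senescent medium. The values within a medium lay within a few percent of each other, with a coefficient of variation of 1.52% and 2.00%, and those of both media were far apart. The log2 fold change was 0.45 ± 0.032 (adjusted p = 5.02e-13, edgeR).

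Ecm1 (ENSMUSG00000028108), extracellular matrix protein 1, binds perlecan and other matrix proteins. Its control libraries were nearly identical, at 604.8, 603.2 and 604.7 CPM, and the senescent-medium libraries held 814, 796 and 794 CPM. The log2 fold change was 0.41 ± 0.032 (adjusted p = 3.30e-12, edgeR). Tenascin-C, encoded by Tnc (ENSMUSG00000028364), is a large hexameric glycoprotein that appears in healing and developing tissue and loosens cell attachment to fibronectin. Tnc went from 263, 279 and 292 CPM to 359.8, 377 and 366 CPM, again without overlap. Its log2 fold change, 0.40 ± 0.037 (adjusted p = 1.61e-10, edgeR), was close to that of Ecm1.

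The thrombospondins moved in different directions. Thrombospondins 1 and 2 are trimers that bind CD47 and CD36 and restrain blood vessel growth, and thrombospondin 1 also activates latent TGF-beta; thrombospondin 3 belongs to the pentameric branch of the family. Thbs2 (ENSMUSG00000023885) rose, from 1139, 1223 and 1214 CPM to 1452, 1408 and 1445 CPM, a change of 0.27 ± 0.034 on the log2 scale (edgeR, adjusted p = 7.04e-08). Thbs1 (ENSMUSG00000040152) fell, from 9764, 10887 and 10947 CPM to 9175, 9726 and 9466 CPM. Control replicate 1 was the lowest of its group and lay just above the highest senescent-medium library. The log2 fold change of Thbs1 was -0.16 ± 0.039 (adjusted p = 0.00162, edgeR). Thbs3 (ENSMUSG00000028047) was the scarcest of the 3 and fell the most of the 10 genes, from 47.3, 43.7 and 43.4 CPM to 26.0, 26.6 and 26.0 CPM. Its log2 fold change was -0.77 ± 0.062 (adjusted p = 5.81e-12, edgeR), from 500 to 948 counts per library. Exons of Mtx1 on the opposite strand overlap 6.59% of the exon length of Thbs3, and strand use in counting is not given; Mtx1 itself held 25.9 ± 0.477 and 26.7 ± 1.40 CPM and did not pass the test (edgeR, adjusted p = 0.638).

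A ratio of 2 genes within a library does not depend on how libraries are scaled. The control libraries held 8.57, 8.90 and 9.01 Thbs1 counts for each Thbs2 count, and the senescent-medium libraries 6.32, 6.91 and 6.55. The groups did not overlap, and the log2 ratio was lower by a difference of -0.42 in senescent medium. The log2 ratio of Thbs3 to Thbs2 differed by -1.04, with 0.0415, 0.0358 and 0.0357 Thbs3 counts per Thbs2 count in control and 0.0179, 0.0189 and 0.0180 in senescent medium. For both ratios the exact two-sided permutation p was 0.1, the smallest that 3 against 3 libraries allow, so neither can pass 0.05; adjusted over the 5 ratios computed it was 0.167.

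Spp1 (ENSMUSG00000029304) encodes osteopontin, an acidic phosphoprotein that binds integrins and is made by bone cells, macrophages and stromal cells. It fell, from 1356, 1392 and 1524 CPM in control medium to 1225, 1198 and 1222 CPM in senescent medium. The control libraries spread more (coefficient of variation 6.22% against 1.23%), and control replicate 3 was highest. The log2 fold change was -0.23 ± 0.037 (adjusted p = 5.88e-06, edgeR). Exons of the unconfirmed gene Gm42793 on the same strand cover 18.8% of the exon length of Spp1, but its own CPM lay between 0.107 and 0.507 in all 6 libraries.

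Postn and Tgfbi encode periostin and the TGF-beta-induced protein, relatives built from fasciclin-like repeats; periostin takes part in collagen crosslinking. Postn (ENSMUSG00000027750) fell, from 478, 491 and 491 CPM to 435, 441 and 442 CPM. The difference was small but larger than the spread, since the coefficient of variation was 1.54% and 0.891% (log2 fold change -0.15 ± 0.033, adjusted p = 3.55e-04, edgeR). Tgfbi (ENSMUSG00000035493) was the scarcest of the 10 genes, with 234 to 285 counts per library. It held 13.2, 13.1 and 14.6 CPM in control and 11.6, 13.3 and 12.6 CPM in senescent medium, and the groups overlapped. Its log2 fold change of -0.13 ± 0.096 missed the threshold (adjusted p = 0.283, edgeR). The Postn to Tgfbi log2 ratio differed by -0.019 between media, less than its spread (exact two-sided permutation p = 0.8).

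**Figure D2:**
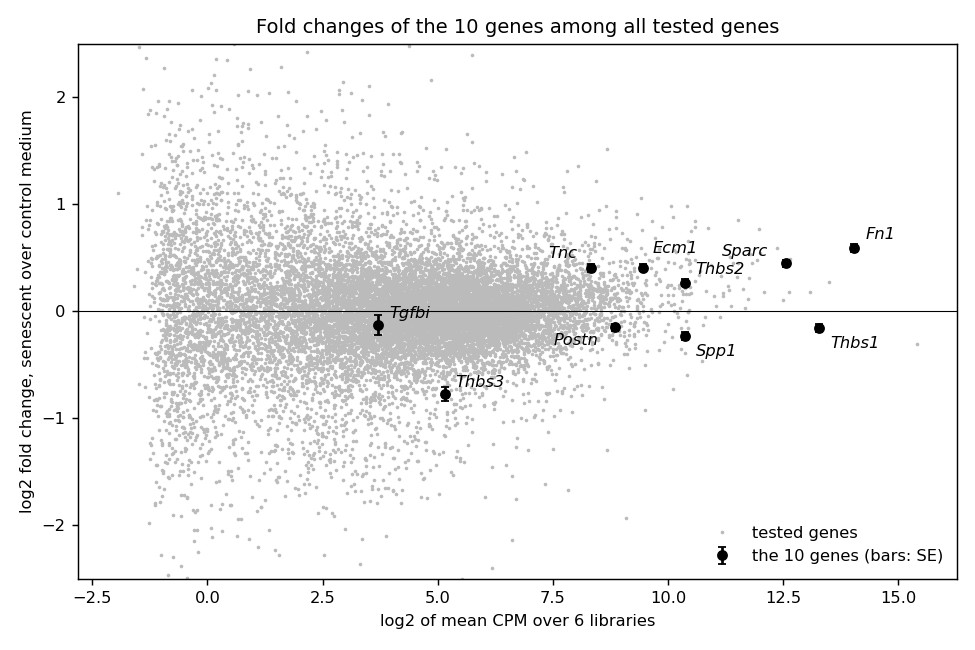
Log2 fold change (senescent over control medium) of every tested gene (grey) against the log2 of its mean CPM, with the 10 genes in black and their SE as bars; 38 genes outside ±2.5 are not drawn. Fn1, Thbs1 and Sparc lie at the abundant end, and Tgfbi and Thbs3 among genes of middling level.

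Levels of different genes are compared here only per exon length, as CPM per kilobase of annotated exon. Exon length joins the exons of all annotated transcripts of a gene, so it can exceed the length of the transcript made. The order of genes, their ranks and where the order changes between media therefore depend on the annotation. In control medium Thbs1 had the highest level of the 10, 1734 ± 110 (SD, n = 3), followed by Sparc with 1357 ± 20.7 and Fn1 with 1152 ± 50.7, and no library of one overlapped with another's. In senescent medium the order was Sparc with 1854 ± 37.0, Fn1 with 1735 ± 78.3 and Thbs1 with 1557 ± 45.4. There Sparc and Fn1 overlapped, from 1817 for the lowest Sparc library to 1820 for the highest Fn1 library, while every Fn1 library was above every Thbs1 library. The other 7 genes kept their order in both media: Spp1, Ecm1, Thbs2, Postn, Tnc, Thbs3 and Tgfbi, from 864 and 737 for Spp1 down to 3.61 and 3.31 for Tgfbi, with no overlap between neighbours within a medium. By mean level over all 6 libraries Thbs1, Sparc and Fn1 ranked 14, 15 and 17 among 14625 tested genes with a known exon length. Spp1 ranked 43, Ecm1 155 and Thbs2 236, while Thbs3 ranked 5528 and Tgfbi 8338.

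**Figure D3:**
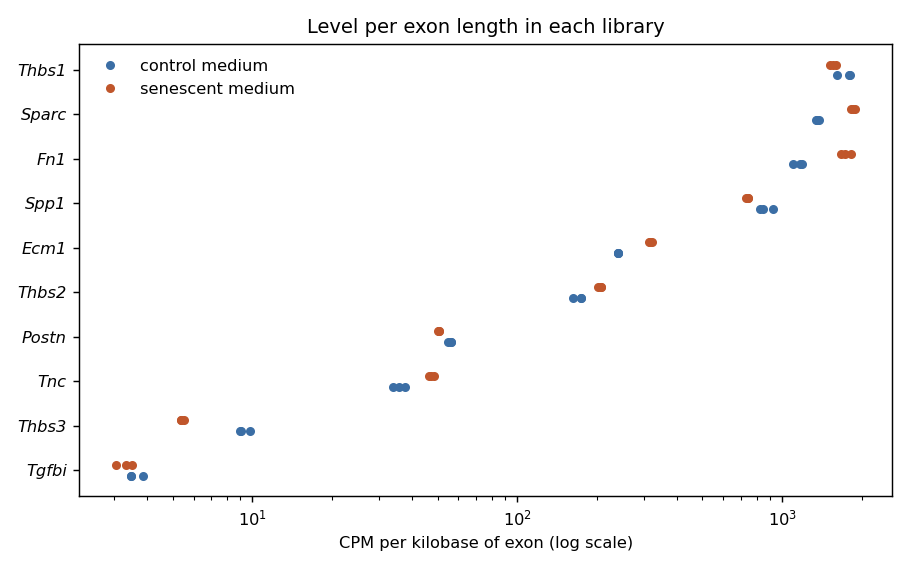
CPM per kilobase of exon for the 10 genes on a log scale, with 1 point per library (blue control, orange senescent medium). Thbs1 leads in control medium, and Sparc and Fn1 are above it in senescent medium.

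Together the 10 genes took 3.26%, 3.47% and 3.50% of the control libraries' counts and 3.86%, 4.07% and 4.03% of the senescent-medium libraries' counts. Fn1, Thbs1 and Sparc made up most of that, with 2.86% to 3.07% in control and 3.44% to 3.66% in senescent medium. Within the control group, replicate 1 held the lowest CPM for 6 of the 10 genes (Fn1, Tnc, Postn, Spp1, Thbs1 and Thbs2). Among senescent-medium libraries replicate 1 was also lowest for 6 and replicate 2 highest for 5.

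Fn1 and Sparc were set against Col1a1, the main chain gene of type I collagen, which both proteins bind. Control libraries held 2.42, 2.56 and 2.55 Fn1 counts per Col1a1 count and senescent-medium libraries 2.66, 2.74 and 2.70. The groups did not overlap, with a log2 difference of 0.10 (exact two-sided permutation p = 0.1, the smallest possible here; 0.167 adjusted over the 5 ratios). Col1a1 itself rose, by 0.49 ± 0.033 on the log2 scale. The Sparc to Col1a1 ratio was 0.988, 0.936 and 0.953 in control and 0.978, 0.886 and 0.942 in senescent medium. These groups overlapped, with a log2 difference of -0.037 (exact two-sided permutation p = 0.5).

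**Figure D4:**
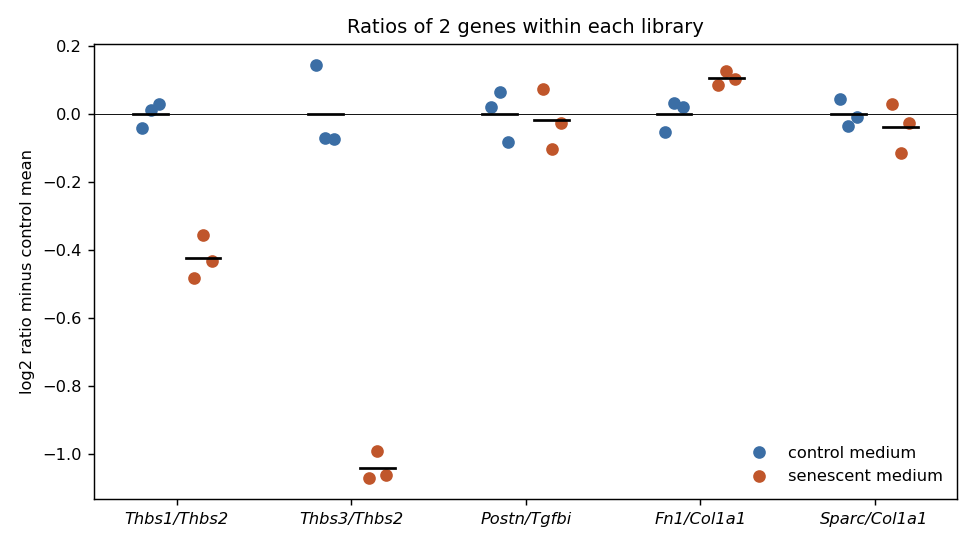
Log2 ratio of 2 genes within each library, minus the control mean (blue control, orange senescent medium; lines are means of 3). Thbs1/Thbs2 and Thbs3/Thbs2 are lower in all 3 senescent-medium libraries and Fn1/Col1a1 higher, while Postn/Tgfbi and Sparc/Col1a1 overlap.

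Other matricellular and adhesive glycoproteins moved both ways as well. Of 30 genes looked up by name, 25 were in the table and 22 were tested; 8 rose, 5 fell and 9 did not pass, with a median log2 fold change of 0.11. With library totals alone 5 rose and 7 fell. Over all tested genes 24.6% rose and 24.9% fell, or 17.7% and 32.9% with library totals alone. The most abundant per exon length were fibulin-2 (Fbln2), which binds fibronectin, follistatin-like 1 (Fstl1), a relative of SPARC, and connective tissue growth factor (Ccn2). Fbln2 rose from 4209 ± 75.1 to 6349 ± 128 CPM (log2 fold change 0.59 ± 0.033), close to the change of Fn1. Fstl1 changed by 0.31 ± 0.032 and Ccn2 by 0.16 ± 0.036, and Ccn2 missed the threshold with library totals alone (adjusted p = 0.0525, edgeR). The largest rises were those of Fbln7, from 3.96 ± 0.117 to 10.1 ± 0.196 CPM, and Ccn3, from 19.0 ± 1.93 to 44.5 ± 1.99 CPM. Fbln1, another fibulin that binds fibronectin, fell from 139 ± 6.29 to 102 ± 3.45 CPM (-0.45 ± 0.043), and the SPARC relative Smoc1 and the CCN family gene Ccn4 fell as well (-0.45 ± 0.13 and -0.42 ± 0.045).

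Receptors of these proteins were looked at next. Of 23 genes 18 were tested, 9 rose, 5 fell and 4 did not pass, with a median log2 fold change of 0.13. With library totals alone 6 rose and 7 fell. The shares of all tested genes were 24.6% higher and 24.9% lower, or 17.7% and 32.9% with library totals alone. Of the thrombospondin receptor genes Cd36 and Cd47, Cd36 was listed but too low to test. Cd47 held 129 ± 4.65 and 128 ± 2.56 CPM and did not pass (log2 fold change -0.016 ± 0.040, adjusted p = 0.776, edgeR). Itgb1, the integrin beta subunit shared by the main fibronectin receptors, was the most abundant per exon length and rose from 1222 ± 40.3 to 1423 ± 8.75 CPM (0.22 ± 0.033). The fibronectin receptor chain Itga5 fell, from 270 ± 9.52 to 250 ± 9.16 CPM (-0.11 ± 0.037, adjusted p = 0.0138, edgeR). Its libraries overlapped between media. Itgb5, the beta subunit of an alpha-v integrin, changed by 0.20 ± 0.034. Lrp1, the endocytic receptor that clears thrombospondins, held 3269 ± 234 and 3543 ± 258 CPM and missed the threshold (log2 fold change 0.12 ± 0.069, adjusted p = 0.215, edgeR). Other settings called it higher: limma-voom (adjusted p = 0.0451), and edgeR once control replicate 2 or else replicate 1 of senescent medium was left out (0.0468 and 0.00671, log2 fold change 0.17 in both). Itgb3, which pairs with the alpha-v chain to bind fibronectin, osteopontin and thrombospondin, had the largest rise, from 16.0 ± 1.56 to 33.6 ± 3.37 CPM (1.07 ± 0.083). The heparan sulfate proteoglycan genes Sdc3 and Sdc2 changed by 0.61 ± 0.034 and 0.38 ± 0.036. Of the same family, Sdc4 fell from 151 ± 2.98 to 130 ± 3.64 CPM (-0.22 ± 0.039). Sdc1 did not pass the test (-0.028 ± 0.034, adjusted p = 0.521, edgeR). Among the falls were Itga3 (-0.92 ± 0.12), the collagen receptor chain Itga11 (-0.57 ± 0.052) and Itga9, whose integrin binds tenascin-C and osteopontin, from 42.3 ± 2.96 to 31.1 ± 1.65 CPM (-0.44 ± 0.065).

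In a list of TGF-beta ligands and signalling genes, matrix partners and adhesion genes, 30 of 31 were tested; 13 rose, 5 fell and 12 did not pass, with a median log2 fold change of 0.08. With library totals alone 10 rose and 11 fell. Among all tested genes 24.6% rose and 24.9% fell, or 17.7% and 32.9% with library totals alone. Among the most abundant per exon length were Lox, a collagen crosslinking oxidase (0.18 ± 0.034), and Col1a1. Tgm2, a transglutaminase that crosslinks fibronectin, had the largest rise, from 6.59 ± 0.755 to 15.3 ± 0.162 CPM (1.22 ± 0.11), before the collagen genes Col5a1 (0.79 ± 0.034) and Col1a2 (0.54 ± 0.032). The TGF-beta ligand genes moved in different directions. Tgfb3 fell from 126 ± 1.68 to 90.7 ± 4.57 CPM (-0.47 ± 0.043). Tgfb2 rose from 50.7 ± 2.80 to 64.5 ± 1.47 CPM (0.35 ± 0.052), and Tgfb1 did not pass the test (0.15 ± 0.069, adjusted p = 0.0824, edgeR). Mmp2, a gelatinase that cleaves fibronectin among other substrates, changed by -0.34 ± 0.035, and Ltbp1, which anchors latent TGF-beta to the matrix, by -0.30 ± 0.063.

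**Figure D5:**
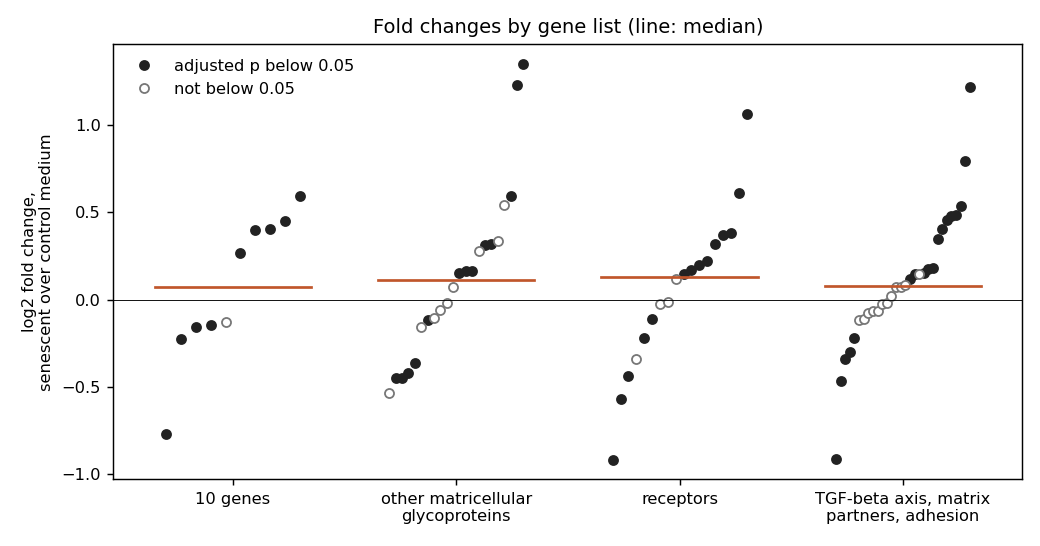
Log2 fold changes (senescent over control medium) of the tested genes in 4 lists, 1 point per gene sorted by value; filled points have an adjusted p below 0.05 and the orange line is the median. All 4 lists hold changes in both directions, with medians of 0.07, 0.11, 0.13 and 0.08 from left to right.

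Against a larger minimum change, the edgeR test for changes beyond 1.2-fold kept 5 of the 10 genes: Fn1, Sparc, Ecm1 and Tnc higher and Thbs3 lower. By that test 9.95% of all genes were higher and 10.2% lower. The calls of Thbs2 (adjusted p = 0.552) and of Thbs1, Spp1 and Postn (adjusted p = 1 each) were not made by it.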

How the data were processed

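Per the submitters' processing notes, STAR, DESeq2 and the build mm39 were used, with no role or order; which tool counted, with which annotation and strand, is not given in the sources used here. RNA, about 600 ng a sample, was read as pairs of 150 bases, per the labels' protocols. The deposited values are estimated counts per Ensembl gene, not normalized; they were rounded to whole numbers. No listed gene sums to fewer than 10 counts. Symbols, exon lengths and exon overlaps came from GENCODE M21, an annotation of the older build GRCm38, and promoters from RefSeq on GRCm38.p6, so their coordinates are not those of mm39. Where RefSeq gave several starts, the one with most GENCODE coding transcripts starting within 50 bases was used.

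The test was edgeR 4.0.16 (R 4.3.3; robust quasi-likelihood, TMM scaling, expression filter, medium as the only term), two-sided, adjusted over 14644 genes with a threshold of 0.05; the SE is the absolute log2 fold change over the square root of F. Ratios used a pseudocount of 0.5 counts. The procedure was first tested on simulated data. Alternatives were other scalings, filters and thresholds, DESeq2 1.42.0, limma-voom (limma 3.58.1), the replicate number as a block, and each library left out. The 10 genes and the lists were chosen with earlier results of these data known. From each list the text names the 3 most abundant genes per exon length and, among called genes whose higher group averaged 5 CPM or more, up to 3 largest rises and 3 largest falls; Col1a1, Ly6a and Pdgfra check identity. One gene that this rule names is not reported here. Genes named for cell type or exon overlap were outside that rule, as were Cd36, Cd47, Itga5, Sdc1, Sdc4, Tgfb1 and Tgfb2. Protein sequences were not used here.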

Additional observations from a re-analysis of the deposited data

How the results depend on the processing

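Of the 10 genes, the 5 rises and 4 falls were each called under every scaling, filter, tool and left-out library tried (5 and 4 without any 1 library), with the exception of the test beyond 1.2-fold, which left 4 rises and 1 fall. That test also left 3 rises and 3 falls among the 22 other matricellular genes tested, and 3 and 3 among the 18 receptors. In the TGF-beta, matrix and adhesion list of 30 tested genes it left 7 and 3. Over all genes it called 9.95% higher and 10.2% lower. Library totals alone left 5 rises among other matricellular genes and gave 11 falls in the TGF-beta, matrix and adhesion list; they shift the median log2 fold change of all genes to -0.082, and Ly6a changed sign to -0.048 (not called in either case). Leaving out each library gave 8 to 9 rises and 4 to 7 falls among other matricellular genes. It gave 7 to 10 and 4 to 5 among receptors, and 12 to 15 and 5 to 6 in the third list. Over all genes the same fits called 21.5% to 23.6% higher and 21.3% to 24.0% lower. Across left-out libraries the log2 ratio difference ran from -0.46 to -0.39 for Thbs1/Thbs2, -1.08 to -0.97 for Thbs3/Thbs2, 0.078 to 0.12 for Fn1/Col1a1, -0.065 to 0.024 for Postn/Tgfbi and -0.070 to 0.0013 for Sparc/Col1a1; the last 2 changed sign. The replicate block gave 5 rises and 4 falls among the 10 genes and 3704 and 3698 over all genes, and called Lrp1 higher (adjusted p = 7.48e-04). Same-numbered libraries correlated by 0.019, 0.0019 and 0.026 in their deviations over genes, under 0.1 in each pair. All genes counted alike in this, scarce ones included, so it cannot tell whether some genes share a replicate effect. As 3 pairs the ratios cannot go below an exact p of 0.25. For Tgfbi, with under 300 counts a library, the log2 fold change ran from -0.21 to -0.074 and was never called.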
